A study of Mus musculus with 4 samples.

Results

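The 40 genes described here are imprinted genes of the mouse, named by symbol in a list that covers 8 imprinted clusters and a set of single loci. All 40 were found among the 50559 genes of the counts table, and 37 had a mean of at least 10 reads over the libraries. *Snrpn*, *Mcts2* and *Airn* did not, and their ratios were left out of every count. The data were RNA-seq libraries of E14 mouse embryonic stem cells (ESCs) kept on gelatin with leukemia inhibitory factor, and the study asked how loss of *Ythdf2* alters the transcriptome and whether its m6A binding matters for this. Cells of shscr_EV carried a scrambled hairpin and the empty vector. Cells of shYthdf2_EV carried a hairpin against *Ythdf2* and the empty vector, while shYthdf2_WT and shYthdf2_Mut carried a *Ythdf2* hairpin with wild-type YTHDF2 or with a form mutated in m6A binding (the last title is spelled shYtdhf2_Mut). All 4 groups were selected stable lines made with lentivirus, and each had 1 library.

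Imprinted genes are transcribed from the allele of only one parent. Most lie in clusters that share an imprinting control region, where DNA methylation set in the egg or sperm marks one parental copy and is held through the early embryo by KRAB zinc finger proteins such as ZFP57 with TRIM28. Noncoding RNAs such as *H19*, *Meg3*, *Kcnq1ot1* and *Airn* are transcribed from or next to these regions, usually from the opposite allele to the neighbouring protein-coding genes. Several of these genes control growth and placental function, and the *Dlk1-Dio3* cluster is known for its variable imprint in cultured ESCs. Parental origin is given below as it is usually described in the mouse. The counts do not separate alleles, so they show the level of each gene and not its imprint.

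Since ZFP57 recognises the methylated hexamer TGCCGC, the promoters were read for it, and examples of the windows that hold it are shown, from 7 of the 12 members that have one. The windows ran from 250 bases before to 50 bases after each start site in the RefSeq table of GRCm38.p6, and both strands were searched (TGCCGC or GCGGCA) with no other motif. The capitals mark the hexamer, and each line is written along the strand of its gene.

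Mest at chr6:30737971-30738000, plus strand: aggaggggcgctGCGGCAggatgggcgggt
Plagl1 at chr10:13090730-13090759, plus strand: ctggcgtgttgcGCGGCAaagcccacggca
Nap1l5 at chr6:58907133-58907162, minus strand: cagccattcactTGCCGCgagccgcgaagc
Zdbf2 at chr1:63200210-63200239, plus strand: gctttgcggcttTGCCGCcttcacagatgc
Grb10 at chr11:12037379-12037408, minus strand: gggtgcggggagGCGGCAggaagggaaggg
Meg3 at chr12:109540794-109540823, plus strand: gccaggggcactGCGGCAgatttttttttc
Snrpn at chr7:60005184-60005213, minus strand: gacccctgcattGCGGCAaaaatgtgcgca

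Of the 34 members with a promoter in the table, 12 (35.3%) held the hexamer in at least 1 window, against 13.05% of 27025 genes. The windows of the members were richer in GC, with a median of 61.2% against 52.7% for all windows. Among windows with a GC content of at least 60%, 22.2% of 27 windows of the members and 26.0% of 9690 windows of all genes held it. A match here is only a run of letters.

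A further set of sequences lies inside one member. *Rtl1*, a paternally expressed gene derived from a retrotransposon, is read on the minus strand. On the other strand its exon holds hairpins of maternally transcribed miRNAs that target the *Rtl1* transcript. RefSeq lists 11 mature miRNAs from 6 such genes within the *Rtl1* exon at chr12:109589193-109595488 on GRCm38.p6, and they have 11 different seeds. For 5 of these genes 1 mature miRNA each is shown, 5′ to 3′, with the seed (bases 2 to 8) in capitals.

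mmu-miR-431-5p: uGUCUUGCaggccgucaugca
mmu-miR-433-3p: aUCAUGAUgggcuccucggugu
mmu-miR-127-3p: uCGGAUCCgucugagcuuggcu
mmu-miR-434-3p: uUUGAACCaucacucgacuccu
mmu-miR-136-5p: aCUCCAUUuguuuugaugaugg

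They are shown because reads were counted without regard to strand, so *Rtl1* reads and reads of the transcripts that carry these hairpins cannot be told apart. In the annotation used for counting, 21.3% of the exon bases of *Rtl1* lie opposite another gene and 33.1% of those of *Meg3* lie opposite *Rtl1*. Reads that overlapped both genes were left out.

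The libraries held 31533129 to 35742335 reads, and with 1 library per group no ratio below has a replicate check. Intervals are 95% Clopper-Pearson intervals on read pairs and cover counting error only, since amplified reads are not independent molecules. *Ythdf2* had 2806 reads in shscr_EV, 662 in shYthdf2_EV, 7661 in shYthdf2_WT and 6925 in shYthdf2_Mut, and the knockdown level was 20.8% of the control. All 8 ESC markers were present, with a summed level of 5329 to 5969 CPM (counts scaled to library size), while fibroblast markers summed to 10.9 to 16.5 CPM and mesoderm markers to 21.3 to 30.7. In the order shscr_EV, shYthdf2_EV, shYthdf2_WT and shYthdf2_Mut, primitive endoderm markers summed to 13.1, 16.5, 10.2 and 15.8 CPM and trophectoderm markers to 126, 91.4, 123 and 97.9. The libraries also differed in ways their labels do not name. Markers of the 2-cell-like state summed to 153 CPM in shscr_EV, 515 in shYthdf2_EV, 164 in shYthdf2_WT and 461 in shYthdf2_Mut, and the Y-linked genes *Ddx3y*, *Eif2s3y*, *Uty* and *Kdm5d* summed to 2, 604, 85 and 528 reads in that order. The log2 ratio of shYthdf2_Mut to shYthdf2_WT followed transcript GC content (Spearman's rho of -0.39 over 16726 genes), which the knockdown ratio did not to that extent (-0.06). For shYthdf2_WT rho was 0.34 against shYthdf2_EV and 0.35 against shscr_EV, and for shYthdf2_Mut -0.16 and -0.17. Chromosome 12 genes were lower than other autosomes in shYthdf2_EV and shYthdf2_Mut, and by less in shYthdf2_WT, each against shscr_EV. The part of these differences in the results below was not tested, except where a value without them is given.

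Levels were compared between genes as reads scaled to exon length and library size (RPKM). The highest mean levels over the libraries were those of the noncoding RNA *Rian* at 114, *Peg10* at 79.1, *Cd81* at 61.6 and *Meg3* at 23.8. At the other end lay *Airn* at 0.038 and *Snrpn* at 0.030. The order spans both parental origins, with the maternally expressed *Rian* followed by the paternally expressed *Peg10*. Long annotated exons lower the values of *Rtl1*, *Kcnq1ot1*, *Mest* and *Impact*.

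**Figure D1:**
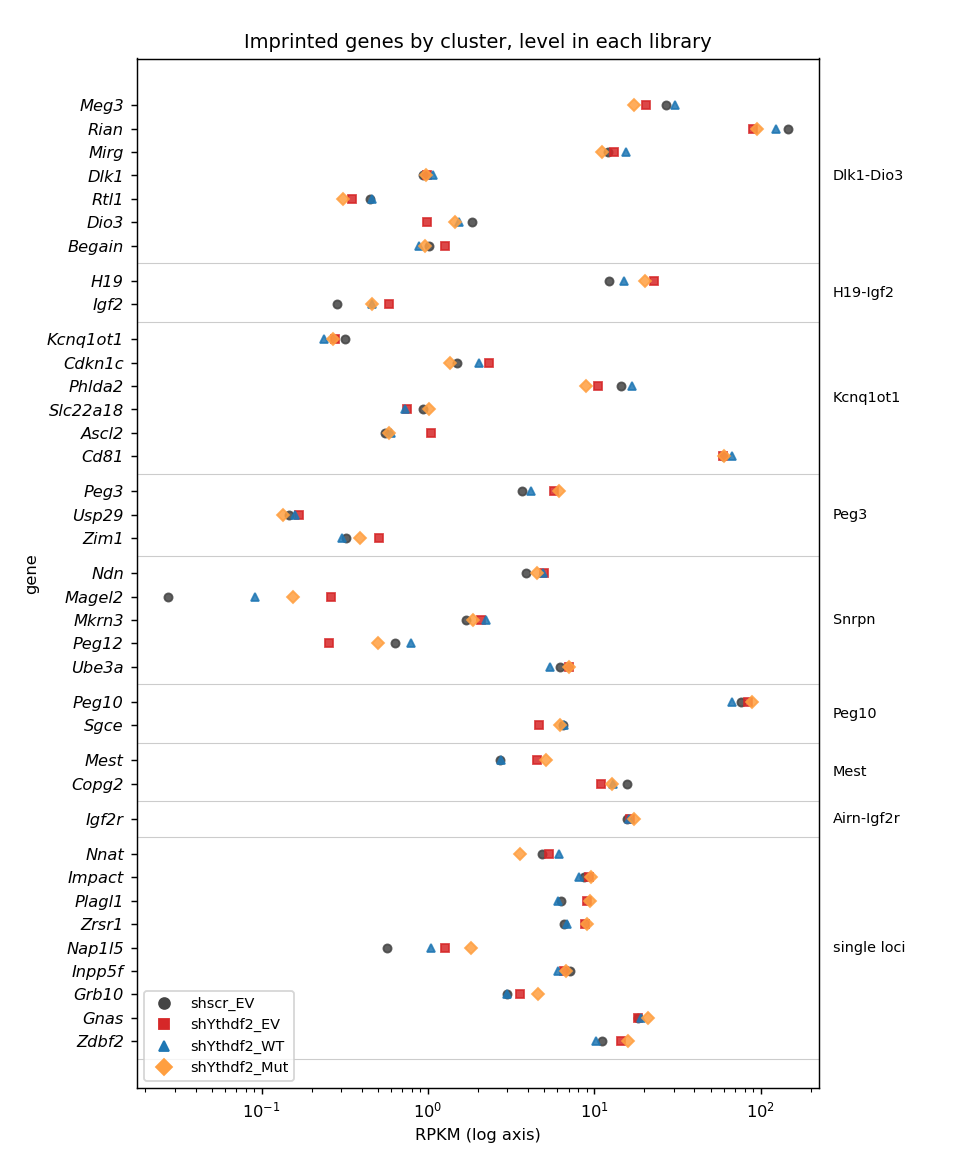
Level of each of the 37 imprinted genes with a mean of at least 10 reads, in RPKM on a log axis, by cluster, with 1 point for each library. Most points of a gene lie close together, and *Magel2* spreads furthest, from 0.027 in shscr_EV to 0.263 in shYthdf2_EV.

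On knockdown the imprinted genes moved in both directions and mostly by less than 2-fold. In shYthdf2_EV against shscr_EV, 4 of the 37 were past 2-fold, against 12.8% of the 18586 genes that passed the same filter. *Igf2*, *Magel2* and *Nap1l5* were higher (7.1% of all genes) and *Peg12* was lower (5.7%). With a mean of at least 50 reads required, *Igf2* and *Nap1l5* were left. At the level of counting error, 15 members lay above 0 (23.2% of all genes), 9 lay below it (22.9%) and 13 had intervals that hold 0. The median log2 ratio was 0.14, against 0.00 for all genes. For the 30 tested members outside chromosome 12 it was 0.23, and 15 of these lay above counting error and 5 below. In bulk RNA, more cells with a transcript and more of it per cell cannot be told apart.

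With wild-type YTHDF2, 2 members were past 2-fold against shYthdf2_EV, with 10.7% of all genes past it. *Peg12* was higher (5.15% of all genes) and *Magel2* lower (5.58%), and both have a mean under 50 reads. Past counting error 9 members were higher (21.1% of all genes) and 12 lower (21.5%). The median was -0.13, or -0.06 after correction for GC content. With the mutant, 0 were past 2-fold (6.03% of all genes), although *Peg12* reached 0.97. Past counting error 9 were higher (14.7% of all genes) and 4 lower (12.9%), and the median was 0.03. Between the mutant and the wild-type form 0 were past it (11.6% of all genes), with *Mest* at 0.91 and *Phlda2* at -0.91 the furthest out. Past counting error there, 14 members were higher (23.9% of all genes) and 7 lower (23.6%). The comparisons with shYthdf2_EV share that library with the knockdown ratio, so their values are given beside each other and not set against it.

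The *Dlk1-Dio3* cluster on chromosome 12 held 4 of the 9 members that were lower past counting error on knockdown. Its noncoding RNAs *Meg3* and *Rian*, expressed from the maternal allele, were lower in shYthdf2_EV and in shYthdf2_Mut than in shscr_EV, and the third, *Mirg*, stayed within counting error of it. Its protein-coding genes, expressed from the paternal allele, had few reads and no common direction. Chromosome 12 genes as a group were lower in the same libraries, so the cluster is also set against them.

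*Meg3* (mm39 chromosome 12, 109506879 to 109538163, plus strand), the long noncoding RNA that starts the maternal transcription unit, had 11012 reads in shscr_EV, 9510 in shYthdf2_EV, 12969 in shYthdf2_WT and 7148 in shYthdf2_Mut. It was highest with the wild-type form and lowest with the mutant. The log2 ratio was -0.40 (95% interval -0.45 to -0.34) on knockdown and -0.81 (-0.87 to -0.75) for mutant against wild-type.

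*Rian* (109570379 to 109628150, plus strand), which hosts small nucleolar RNAs, had 16527 reads in shscr_EV, 11621 in shYthdf2_EV, 14620 in shYthdf2_WT and 10862 in shYthdf2_Mut, the order used for all genes below. Its ratio was -0.69 (-0.74 to -0.65) on knockdown and -0.38 (-0.43 to -0.33) for mutant against wild-type, and the second was -0.70 after correction for GC content. The wild-type library lay between the others, at -0.24 (-0.28 to -0.19) against shscr_EV, or -0.07 after GC correction.

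*Mirg* (109701415 to 109715892, plus strand), a host of many miRNAs at the far end of the unit, had 497, 613, 663 and 458 reads. Its knockdown ratio of 0.12 (-0.13 to 0.36) was within counting error, and that of mutant to wild-type was -0.48 (-0.73 to -0.24). The members of the maternal unit therefore did not share 1 ratio.

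Of the protein-coding members, *Dlk1* (109418411 to 109429262), a membrane-bound relative of Notch ligands, had 144, 174, 173 and 152 reads, and *Begain* (108998107 to 109034168), a neuronal protein, had 113, 160, 102 and 107. Neither left counting error in any of the 4 comparisons. *Dio3* (110245664 to 110247531), which inactivates thyroid hormone, had 108, 66, 95 and 86 reads and a knockdown ratio of -0.89 (-1.57 to -0.25). *Rtl1* (109531141 to 109570852, minus strand) had 436, 386, 470 and 305 reads, with ratios of -0.36 (-0.65 to -0.08) on knockdown and -0.57 (-0.88 to -0.27) for mutant against wild-type, the second being -0.36 after GC correction. The order of the libraries for *Rtl1* was that of *Meg3*, with which it shares sequence on the other strand.

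**Figure D2:**
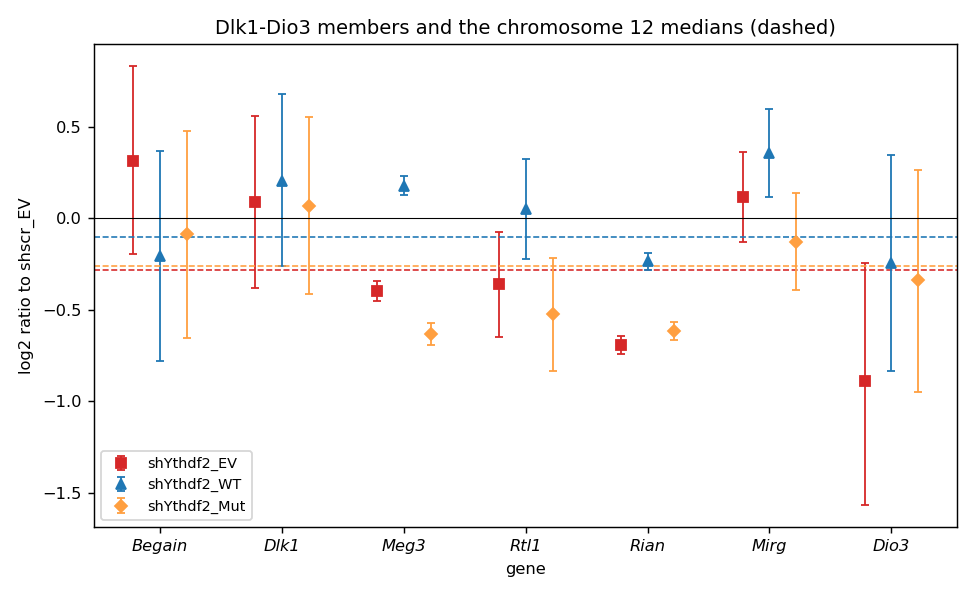
Log2 ratio to shscr_EV of the 7 *Dlk1-Dio3* members in the other 3 libraries, in the order of the genes' start positions, with 95% counting intervals; dashed lines are the medians of 414 other chromosome 12 genes in the same colours. *Rian* lies under the dashed line of its library in all 3, and *Meg3* lies above it in shYthdf2_WT.

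The cluster was then set against the chromosome. Median log2 ratios to shscr_EV were taken over 414 other chromosome 12 genes with a mean of at least 200 reads. They were -0.29 in shYthdf2_EV, -0.10 in shYthdf2_WT and -0.26 in shYthdf2_Mut. The medians of the other autosomes lay between -0.04 and 0.04 for the knockdown. For shYthdf2_WT they lay between -0.07 and 0.08, and for shYthdf2_Mut between -0.05 and 0.05. The summed reads of the 7 members had ratios of -0.54, -0.05 and -0.60. Minus the chromosome median, the cluster stood at -0.26 (-0.29 to -0.22) in shYthdf2_EV and -0.34 (-0.38 to -0.31) in shYthdf2_Mut. In shYthdf2_WT it stood at 0.06 (0.02 to 0.09). Intervals of these differences take the median as fixed and leave out the spread among the 414 genes. Against the genes within 5 Mb of *Meg3* these differences were -0.18, -0.21 and -0.00752, so the last changed sign. These 3 share the shscr_EV library. Between mutant and wild-type, which does not use that library, the cluster stood at -0.56, the chromosome at -0.16 and the difference at -0.39 (-0.43 to -0.36).

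Most of the summed reads belong to *Rian* and *Meg3*, and the difference on knockdown rests on *Rian*. Without *Rian* it was -0.07, and the median of the 7 members differed from the chromosome by -0.08. In shYthdf2_Mut the median differed by -0.08 too. For mutant against wild-type the difference without *Rian* was larger, at -0.60, while it was -0.25 against the genes within 5 Mb and -0.22 as a median. *Rian* was lower than 374 of the 414 genes on knockdown, and *Meg3* was lower than 398 of them for mutant against wild-type. In the other direction, *Mirg* was higher than 362 of the genes on knockdown and *Begain* higher than 388. The 4 protein-coding members summed to -0.21 on knockdown, a difference of 0.07 (-0.13 to 0.28) from the chromosome.

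Distance along the chromosome was examined next. The median knockdown ratio was -0.39 for the 6 other genes within 1 Mb of *Meg3*, -0.36 for 50 genes at 1 to 5 Mb (of which 47 were lower), -0.29 for 45 genes at 5 to 20 Mb, -0.26 for 193 genes at 20 to 60 Mb and -0.25 for 120 genes further away. Within 1 Mb, 4 of the 6 genes were lower, and 1 of the 6, *AF357359*, lies inside the span of *Rian*. The median was below 0 in each of these classes, and lowest in those nearest to the cluster. For mutant against wild-type the medians were -0.12, -0.31, -0.08, -0.17 and -0.07, without such an order.

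**Figure D3:**
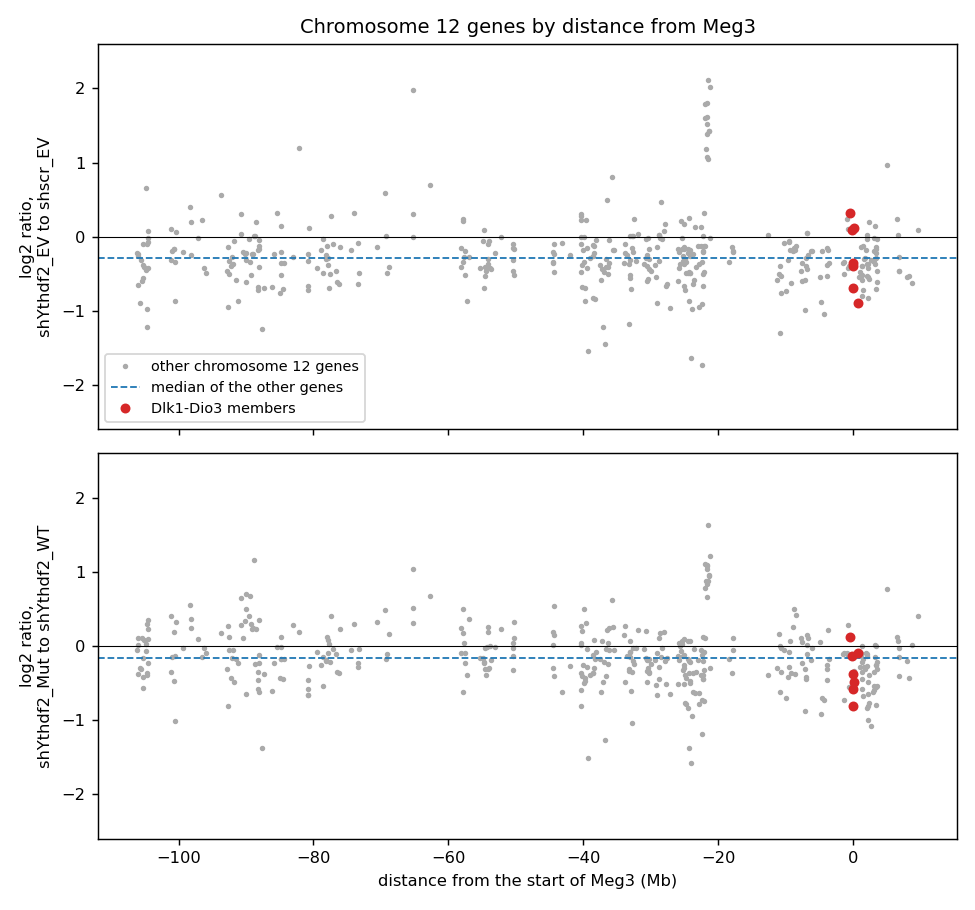
Log2 ratio of each of the 414 other chromosome 12 genes (grey) and of the 7 *Dlk1-Dio3* members (red) against distance from the start of *Meg3* in Mb, for the knockdown (top) and for shYthdf2_Mut against shYthdf2_WT (bottom); dashed lines are medians of the grey points. Grey points lie mostly below 0 along the whole chromosome in the top panel, apart from 13 of the 30 genes between -23 and -21 Mb, which lie above 0.5.

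The *H19-Igf2* cluster on chromosome 7 was higher on knockdown for both of its members, which are expressed from opposite alleles. *H19* (mm39 chromosome 7, 142129267 to 142131883), a maternally expressed noncoding RNA and precursor of a miRNA, had 890, 1881, 1141 and 1475 reads. The control library was the lowest and the wild-type library the next. Its knockdown ratio was 0.89 (0.73 to 1.06). Against shYthdf2_EV it stood at -0.59 (-0.75 to -0.44) with the wild-type form and -0.17 (-0.32 to -0.03) with the mutant, and at 0.42 (0.26 to 0.58) for mutant against wild-type, or 0.63 after GC correction. *Igf2* (142204505 to 142220566), the paternally expressed growth factor, had 51, 120, 87 and 83 reads. It was 2.06-fold higher on knockdown, a log2 ratio of 1.04 (0.36 to 1.78), and -0.02 (-0.67 to 0.63) for mutant against wild-type. At this depth a difference of *Igf2* between the constructs was not detectable.

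The *Kcnq1ot1* cluster, further along chromosome 7, had no common direction. *Kcnq1ot1* (142766848 to 142850284), the paternal noncoding RNA that silences its neighbours in cis, had 839, 823, 651 and 711 reads and a knockdown ratio of -0.21 (-0.41 to -0.01). *Cdkn1c* (143012076 to 143014802), a maternally expressed inhibitor of cell division, had 94, 166, 132 and 86 reads. It was 0.63 (0.10 to 1.18) on knockdown and -0.77 (-1.34 to -0.22) with the mutant against shYthdf2_EV.

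*Phlda2* (143055282 to 143056882), a maternally expressed gene that restrains placental growth, had 498, 409, 598 and 308 reads. The mutant library was the lowest and the wild-type library the highest. The ratios were -0.47 (-0.74 to -0.20) on knockdown and -0.91 (-1.20 to -0.62) for mutant against wild-type. *Ascl2*, a transcription factor of the trophoblast, had 28, 60, 32 and 30 reads, a knockdown ratio of 0.90 whose interval (-0.05 to 1.94) holds 0. *Slc22a18*, a transporter, had 43 to 58 reads and stayed within counting error in the 4 comparisons, and *Cd81*, a tetraspanin, had 2854 to 3362 reads and log2 ratios from -0.16 to 0.18. Of the exon bases of *Cd81*, 42.8% are shared with other genes, chiefly *Tssc4*, and reads there were left out.

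In the *Peg3* cluster at the start of chromosome 7, *Peg3* (6706891 to 6733443), a paternally expressed zinc finger protein, had 1331, 2352, 1577 and 2253 reads. shYthdf2_EV and shYthdf2_Mut were above the other two libraries. The knockdown ratio was 0.64 (0.50 to 0.77). Against shYthdf2_EV the ratios were -0.45 (-0.58 to -0.32) with the wild-type form and 0.11 (0.00 to 0.23) with the mutant, and it was 0.56 (0.43 to 0.70) for mutant against wild-type. *Zim1* (6677443 to 6699521), its maternally expressed neighbour and also a zinc finger gene, had 63, 114, 62 and 77 reads, and a knockdown ratio of 0.67 (0.02 to 1.35). *Usp29*, a deubiquitinating enzyme, had 64 to 91 reads, all within counting error of each other.

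The *Snrpn* cluster held the members with the largest ratios on knockdown, in genes with few reads. *Magel2* (62026727 to 62031388), a paternally expressed gene of the MAGE family, had 4, 44, 14 and 23 reads. It was 8.74-fold higher on knockdown, a log2 ratio of 3.13 (1.25 to 6.41), and -1.49 (-3.00 to -0.25) with the wild-type form against shYthdf2_EV. For mutant against wild-type it was 0.75 (-0.71 to 2.36), so that difference was not detectable. *Peg12* (62111619 to 62114258), a retrogene of the same region, moved the other way with 53, 24, 69 and 42 reads, a ratio of -1.31 (-2.45 to -0.30) on knockdown and 1.63 (0.67 to 2.73) with the wild-type form. Neighbouring genes of 1 paternal domain thus lay on opposite sides of 0.

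*Snrpn* itself (59632243 to 60099925), which encodes a spliceosomal protein and gives the cluster its name, had 0, 9, 4 and 4 reads. With so few reads its counting interval on knockdown holds 0 and no fold was taken. It shares 72.3% of its exon bases with *Snurf* and *Snhg14*, whose reads there were left out, so its level is a minimum. *Ube3a* (58871891 to 58960585), the ubiquitin ligase whose imprint is seen in neurons, had 3265, 4155, 2923 and 3688 reads. Its ratios were 0.16 (0.07 to 0.26) on knockdown and 0.38 (0.29 to 0.48) for mutant against wild-type, and these were 0.05 and 0.06 after correction for GC content. *Ndn* had 204 to 294 reads and *Mkrn3* 137 to 191, and neither left counting error.

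At the *Peg10* cluster on chromosome 6, *Peg10*, a retrotransposon-derived gene needed in the placenta, had 16093, 20183, 14736 and 18799 reads, with small ratios of 0.14 (0.10 to 0.18) on knockdown and 0.40 (0.36 to 0.44) for mutant against wild-type. *Sgce*, which shares its promoter region and encodes a sarcoglycan, had 405, 330, 425 and 387 reads and was lower on knockdown at -0.48 (-0.79 to -0.18).

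The *Mest* locus split the libraries. *Mest* (mm39 chromosome 6, 30733505 to 30783580, plus strand), a paternally expressed gene of the alpha/beta hydrolase family, had 2714 reads in shscr_EV and 2866 in shYthdf2_WT, against 5173 in shYthdf2_EV and 5210 in shYthdf2_Mut. Its knockdown ratio was 0.74 (0.65 to 0.84). Against shYthdf2_EV it stood at -0.72 (-0.82 to -0.63) with the wild-type form and 0.19 (0.11 to 0.27) with the mutant, and at 0.91 (0.82 to 1.01) for mutant against wild-type. *Copg2* (30747552 to 30873729, minus strand), a coat protein of transport vesicles that is read toward *Mest*, had 2233, 1751, 1904 and 1822 reads. It was lower on knockdown at -0.54 (-0.67 to -0.41) and did not leave counting error for mutant against wild-type at -0.01 (-0.15 to 0.12). Of its exon bases 40.6% lie opposite *Mest*, and reads there were left out.

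*Airn* (mm39 chromosome 17, 12960198 to 13078771), the paternal noncoding RNA that silences *Igf2r*, had 3, 3, 3 and 2 reads, at the floor in every library, and no ratio was taken. *Igf2r* (12901293 to 12988593), the maternally expressed receptor that clears IGF2, had 4444, 5257, 4748 and 4939 reads and log2 ratios from -0.02 to 0.11 in the 4 comparisons.

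Among the single loci, several paternally expressed genes were, like *Mest*, higher in shYthdf2_EV and shYthdf2_Mut than in the other two libraries. *Zdbf2* (mm39 chromosome 1, 63239517 to 63353735), a zinc finger gene, had 4727, 6984, 4514 and 6794 reads, with ratios of 0.38 (0.30 to 0.45) on knockdown and 0.64 (0.56 to 0.72) for mutant against wild-type, or 0.41 after GC correction. *Plagl1* (chromosome 10, 12966576 to 13007438), a zinc finger transcription factor that restrains growth, had 1068, 1745, 1058 and 1589 reads and ratios of 0.52 (0.37 to 0.68) and 0.64 (0.48 to 0.80). Against shscr_EV the wild-type library stood at -0.13 (-0.21 to -0.04) for *Zdbf2* and -0.07 (-0.25 to 0.10) for *Plagl1*. After GC correction these 2 ratios were 0.0009 and -0.0018.

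*Zrsr1*, a retrogene related to a splicing factor, had 935, 1412, 1016 and 1286 reads and ratios of 0.41 (0.24 to 0.58) on knockdown and 0.39 (0.22 to 0.56) for mutant against wild-type, the second being 0.25 after GC correction. *Nap1l5* (chromosome 6, 58882218 to 58884111), a retrogene of the nucleosome assembly family, had 34, 86, 65 and 109 reads. It was 2.21-fold higher on knockdown, at 1.14 (0.31 to 2.06), and 0.79 (0.14 to 1.47) for mutant against wild-type. Here the wild-type library lay between the control and the knockdown.

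*Grb10* (chromosome 11, 11880499 to 11987428), an adaptor that restrains insulin and growth factor signalling and is maternal or paternal by promoter, had 492, 674, 512 and 768 reads. Its ratio was 0.27 (0.03 to 0.51) on knockdown and 0.63 (0.40 to 0.87) for mutant against wild-type. *Gnas* (chromosome 2, 174126113 to 174188537), whose main product is the stimulatory G protein alpha subunit, had 5240, 5965, 5670 and 6066 reads and a knockdown ratio of 0.00 (-0.08 to 0.08). It stood at 0.15 (0.07 to 0.22) for mutant against wild-type, and at 0.42 after GC correction. *Nnat*, a small membrane protein of neurons, had 213, 267, 283 and 158 reads, within counting error on knockdown and -0.79 (-1.21 to -0.38) for mutant against wild-type, or -0.49 after GC correction. *Impact*, a regulator of translation under stress, and *Inpp5f*, an inositol phosphatase, had log2 ratios from -0.19 to 0.24, and after GC correction those of mutant to wild-type were 0.01 and 0.04. *Mcts2*, a retrogene inside *H13* with 75.5% of its exon bases shared with it, had 8, 1, 3 and 3 reads.

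The knockdown and the comparison of mutant with wild-type share no library, so they were read together. Of the 37 members, 11 (29.7%) were higher past counting error in both, against 11.2% of all genes. They were *Mest*, *Peg3*, *Plagl1*, *Zdbf2*, *Zrsr1*, *Nap1l5*, *Peg10* and *Impact*, which are expressed from the paternal allele, *H19* and *Ube3a*, which are expressed from the maternal allele, and *Grb10*. Lower in both were *Meg3*, *Rian*, *Rtl1* and *Phlda2*, 4 members (10.8%) against 10.5% of all genes. No member was past counting error in opposite directions. Of all genes, 3.99% were higher on knockdown and lower for mutant against wild-type, and 3.5% the reverse. A further list of imprinted genes, described below, held genes of both these kinds. By origin, 8 of 22 paternally expressed members were higher in both and 1 was lower, against 2 higher and 3 lower of 13 maternally expressed members.

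Deep counts make narrow intervals, so the share was also taken among genes with a mean of at least 500 reads, a limit chosen after the values were seen. There it was 10 of 19 members (52.6%), against 16.8% of 8542 genes. After correction for transcript GC content, also added later, 8 of the 37 remained higher in both (21.6%, against 12.1% of all genes), without *Ube3a*, *Impact* and *Nap1l5*. Corrected ratios of mutant to wild-type were 0.06, 0.01 and 0.61 for these, and *Nap1l5* stood at 1.15 on knockdown. In the same correction *Sgce* and *Copg2* joined the lower members, for a count of 6 (16.2%, against 10.4%). Taking the ratios relative to each gene's chromosome left the same 11 and removed *Rtl1* from the lower ones. The sums given above of 2-cell-like markers, Y-linked reads and primitive endoderm markers were also higher in shYthdf2_EV and shYthdf2_Mut than in the other libraries. The trophectoderm sum was lower there. On knockdown 4 tested primitive endoderm markers were higher and 1 lower, and 4 of these 5 intervals hold 0. For mutant against wild-type all 5 were higher. Of 6 trophectoderm markers, 2 were higher and 4 lower on knockdown, with 4 intervals that hold 0. For mutant against wild-type 3 were higher and 3 lower. The part of these markers and Y-linked reads in the pattern was not tested.

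**Figure D4:**
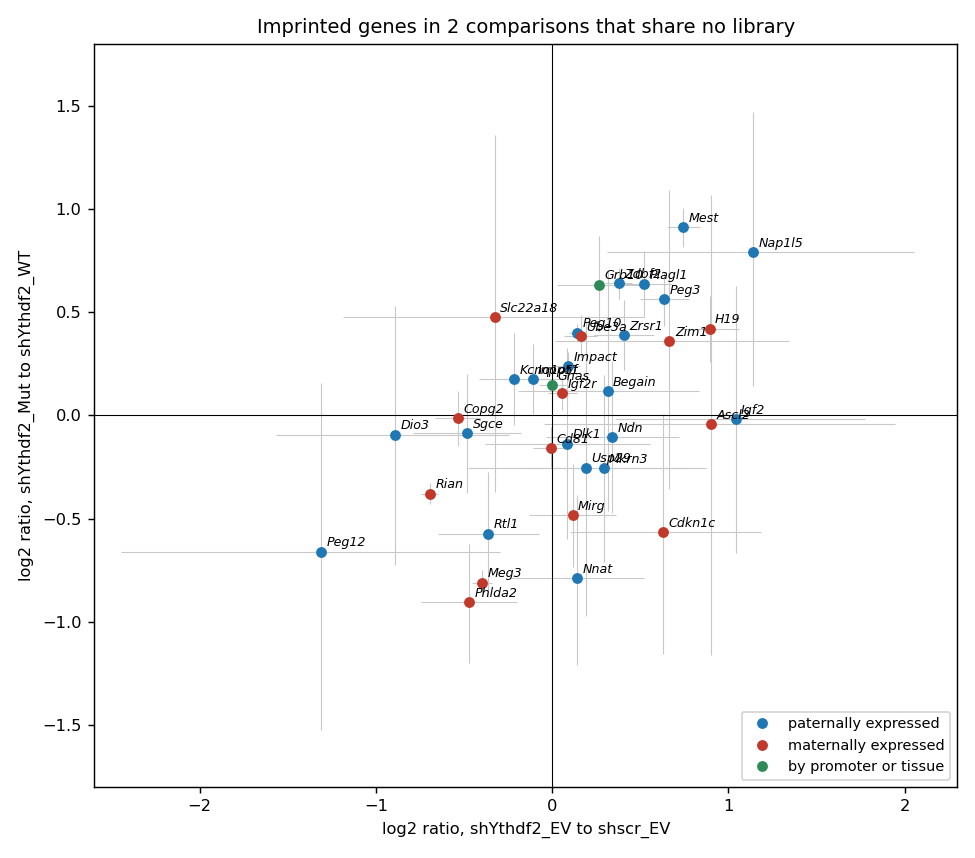
Log2 ratio on knockdown (x axis) and of shYthdf2_Mut to shYthdf2_WT (y axis) for 36 imprinted genes, coloured by parental origin, with 95% counting intervals in grey; *Magel2*, at 3.13 and 0.75, lies outside the axes and is not drawn. *Mest*, *Nap1l5*, *Zdbf2*, *Plagl1* and *Peg3* lie toward the upper right, and *Meg3*, *Phlda2*, *Rtl1* and *Rian* toward the lower left.

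Genes known to set, keep or remove imprints, or to act at imprinted clusters, were listed separately, 22 in all. Among them were KRAB zinc finger proteins, DNA methyltransferases, TET enzymes and Polycomb proteins. None was past 2-fold in any of the 4 comparisons, where 12.8%, 10.7%, 6.03% and 11.6% of all genes were. On knockdown the median log2 ratio was 0.00, with a range from -0.40 to 0.32, 7 genes above counting error (23.2% of all genes) and 9 below (22.9%). The median for mutant against wild-type was 0.15, with 14 above (23.9%) and 4 below (23.6%). *Zfp57* had 17668, 23494, 17691 and 21378 reads, a knockdown ratio of 0.23 (0.19 to 0.27) and a ratio of mutant to wild-type of 0.32 (0.28 to 0.36). *Trim28*, its corepressor, had ratios of 0.00 (-0.02 to 0.03) and 0.07 (0.05 to 0.10). *Dnmt1*, the maintenance methyltransferase, was at -0.09 in both.

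A further list of 42 imprinted genes outside the members had 40 matches and 24 genes with enough reads. Its median on knockdown was 0.00, with 8 genes above counting error (23.2% of all genes) and 5 below (22.9%), and 1, *Tspan32*, past 2-fold (12.8%). The median for mutant against wild-type was 0.13, with 8 above (23.9%) and 3 below (23.6%). *Snhg14*, the paternal noncoding transcript that starts at *Snrpn* and runs opposite *Ube3a*, had 578, 1274, 591 and 1109 reads, with a knockdown ratio of 0.95 (0.75 to 1.16) and a ratio of mutant to wild-type of 0.96 (0.75 to 1.17). Past counting error in both comparisons, *Pon2*, *Casd1*, *Jade1* and *Snhg14* were higher and *Sfmbt2* was lower. Also past it, *Commd1* and *Trappc9* were higher on knockdown and lower for mutant against wild-type, and *Dhcr7* and *Cobl* the reverse. All of these genes were named after their values were seen.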

How the data were processed

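Poly(A)+ RNA of 4 E14 ESC lines was sequenced as paired ends after a stranded (dUTP) preparation, and titles gave the groups. The methods of the study describe replicates, while the labels give 1 library per group. The authors deposited read counts per gene as 1 table. Per the file headers, counting used featureCounts 2.0.3 and a RefSeq annotation of UCSC mm39, unstranded, by reads and leaving out reads with several alignments or overlapping several genes. The submitters' processing notes name fastp 0.19.4, HISAT2 2.2.1, DESeq2 1.40.2 and mm10, so the builds differ. Coordinates of genes are those of the mm39 table, and those of sequences are GRCm38.p6.

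Library sizes were scaled with TMM factors (edgeR 4.0.16, R 4.3.3), and log2 ratios were taken with a prior count of 0.5. Genes with a mean of at least 10 reads were counted, and a member was called at 2-fold. Chromosome medians used genes with a mean of at least 200 reads. A floor of 3 counts corresponds to 0.083 to 0.095 CPM. No p-value was computed. GC content came from the longest GENCODE vM21 transcript of the same symbol, in 20 bins, and all 37 tested members had a value. Intervals were tested on data simulated with counting error alone, which cannot show how they cover other variation.

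The members and lists were chosen with earlier results of these data known. Values in every library were given for the *Dlk1-Dio3* cluster, for pairs of opposite origin and for other members 0.5 or more from 0 on the log2 scale in any of the 4 comparisons. Other members were given mostly by range. Other scalings, prior counts, filters and fold limits were tried.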

Additional observations from a re-analysis of the deposited data

How the results depend on the processing

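No paired analysis was possible because each group had 1 library, and for the same reason no library could be left out. For 14 summary results 106 values were recomputed. Of these 83 stayed close (counts within 1.5 times, other values by less than 1 arm of a counting interval), 21 moved further and 2 changed direction. Single members were recomputed under 6 settings, the other scalings, the prior count, the median of the own chromosome and, added after the data were seen, GC correction. Of 888 values 31 moved by more than 1 arm of their counting interval, 20 of them with GC correction and 10 with the chromosome median. In 29 the sign changed, 17 of them with GC correction, and all 29 had intervals that hold 0. Other scalings shifted the median of all genes by at most 0.044. The number of members past 2-fold on knockdown was 4, and became 2 with a mean of at least 50 reads and 12 at 1.5-fold. With the wild-type form against shYthdf2_EV it was 2, and became 0 and 9. With the mutant against shYthdf2_EV it was 0, and became 1 with GC correction, with a mean of at least 1 and with no filter, and 4 at 1.5-fold. For mutant against wild-type it was 0, and became 1 with GC correction and 10 at 1.5-fold. The median of the members with the mutant against shYthdf2_EV changed sign with GC correction, from 0.03 to -0.0174. The difference of the *Dlk1-Dio3* cluster from chromosome 12 depended on its reference and on *Rian*. On knockdown it was -0.18 against genes within 5 Mb, -0.075 without *Rian* and -0.076 as a median. For shYthdf2_WT against shscr_EV it was -0.00752, 0.28 and 0.15, so its sign changed with the first. For shYthdf2_Mut against shscr_EV it was -0.21 within 5 Mb and -0.077 as a median, and for mutant against wild-type -0.25, -0.60 without *Rian* and -0.22. The number of members lower in both comparisons fell from 4 to 2 with a mean of at least 500 reads, where fewer genes were left. The cause of the other changes was not tested.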
